A study of Mus musculus with 15 samples.

Results

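Khdc3, Ooep, Dppa5a, Dppa3, Dppa2 and Dppa4 are genes of the oocyte, the early embryo and the germ line that are also transcribed in mouse embryonic stem cells (mESC). They were taken by their gene symbols, 6 of the 55228 genes in the expression tables. The set was put together with earlier results of these data known, and Khdc3 was chosen by its measured values, having been seen at a lower FPKM in knockdown than in control cells at 48 h and at a higher one at 240 h. All values of Khdc3 below are therefore a description without a test. All 6 genes passed the minimum mean level used for testing, and the other 5 were tested.

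The RNA-seq libraries came from 81K1 cells, an mESC line built from 1 clone, K1, of the parental line OG2. Every library, controls included, carried a cassette for an shRNA against Smarcb1 in the Rosa26 locus under a doxycycline-dependent promoter, and every culture was grown on gelatine in serum medium with LIF. Untreated cells were sampled at 48 h (48 h ctrl) and 240 h (240 h ctrl), and cells given 1 µg of doxycycline per ml each day were sampled after 48 h, 72 h and 240 h (48 h kd, 72 h kd and 240 h kd), with 3 libraries in each of the 5 groups and 15 in all. The 72 h kd libraries have no control of their own time here and were set against the 48 h ctrl libraries, and since cells with doxycycline but without an shRNA were not analysed here, effects of doxycycline and of the loss of Smarcb1 cannot be told apart.

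Smarcb1 belongs to the core of BAF complexes, which use ATP to move nucleosomes. Khdc3 (also called Filia) and Ooep (also called Floped) encode KH-domain proteins of the subcortical maternal complex, an assembly stored in the oocyte and needed for the first cleavages of the embryo, and Khdc3 also acts in genome maintenance in mESC. Dppa5a (also called Esg1) encodes a small related KH-domain protein that marks pluripotent cells. Dppa3 (also called Stella) is a maternal factor that protects the DNA methylation of the early embryo, and Dppa2 and Dppa4 encode SAP-domain proteins that bind each other and chromatin and act upstream of genes of the 2-cell embryo.

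Khdc3 (ENSMUSG00000092622.8) lies on the plus strand of chromosome 9 at 73101836 to 73104438 in the mouse build mm10 (GRCm38). Ooep (ENSMUSG00000032346.7) lies on the minus strand of the same chromosome at 78376109 to 78378725, and Dppa5a (ENSMUSG00000060461.5) at 78367052 to 78368177 on the same strand, 7932 bp away from it. Dppa4 (ENSMUSG00000058550.15) and Dppa2 (ENSMUSG00000072419.5) are also neighbours, on the plus strand of chromosome 16 at 48283733 to 48294237 and 48303908 to 48319723, 9671 bp apart. Dppa3 (ENSMUSG00000046323.8) lies on the plus strand of chromosome 6 at 122626410 to 122630272. All 6 are annotated as protein-coding.

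A second gene model, Gm20509, starts inside Khdc3 and runs on to the next gene, Rsl24d1. Of the 1016 exonic bases of Gm20509, 790 (77.8%) are also exonic in Khdc3, so that reads from the shared exons cannot be assigned to 1 of the 2 genes. The exon below, from build GRCm38 at chr9:73102830-73103009 on the plus strand, is annotated in both and is shown in full because any read within it could come from either. No base is in capitals.
Khdc3 and Gm20509 shared exon: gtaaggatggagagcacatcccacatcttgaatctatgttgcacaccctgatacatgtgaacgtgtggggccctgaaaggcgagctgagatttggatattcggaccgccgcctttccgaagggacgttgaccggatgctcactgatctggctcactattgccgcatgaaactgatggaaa

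Khdc3 and Ooep lay on opposite sides of their controls at 48 h and at 240 h, and their RefSeq promoter windows are shown for comparison. RefSeq promoter windows (GRCm38.p6) were matched for 2 of the 6 genes, Khdc3 and Ooep. Each stretch is the part of the 250 bases before the RefSeq start that lies outside annotated exons, at chr9:73102205-73102397 on the plus strand for Khdc3 and at chr9:78378726-78378838 on the minus strand for Ooep. The RefSeq starts lie 562 and 137 bases inside the genes as placed above, so that the Khdc3 stretch is intronic in the annotation behind the FPKM values, and the Ooep stretch lies just before its gene. Capitals mark the CG dinucleotides, where DNA methylation can occur.
Khdc3: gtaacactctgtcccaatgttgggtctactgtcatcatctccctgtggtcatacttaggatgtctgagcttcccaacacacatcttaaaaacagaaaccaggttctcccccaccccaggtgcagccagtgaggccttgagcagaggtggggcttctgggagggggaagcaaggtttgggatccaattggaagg
Ooep: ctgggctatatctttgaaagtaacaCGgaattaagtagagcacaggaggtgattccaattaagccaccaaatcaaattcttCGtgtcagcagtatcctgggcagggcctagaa
Over the whole 250-base windows, Khdc3 had 0 CG dinucleotides and Ooep had 11, against a median of 6 over the 32817 promoters of the table. Of all promoter windows in the table, 7.87% had no CG. The letters TGCAAAT (the core of the octamer bound by Pou5f1), CACGTG (the E-box) and TCCCGC (an E2F-like site), searched on both strands, had 0 matches in either window, and 3.57%, 6.02% and 16.9% of all promoters held them. DNA methylation and factor binding were not measured in these libraries.

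Total reads per library lay between 11074998 and 14515300, and 24684 to 26535 genes had a value above 0. Smarcb1 stood at 17.97%, 15.7% and 19.3% of its control in the 48 h, 72 h and 240 h kd groups. The mESC markers Pou5f1, Sox2 and Nanog were present in all 15 libraries, with group means of 244 to 311, 251 to 357 and 60.1 to 82.2 FPKM (reads per kilobase of gene, scaled to the library's total reads). Mitochondrial genes took 0.469% to 2.35% of the reads, with 48 h kd replicate 2 the highest, and the fitted differences of the 6 genes that use that library are given with and without it, as are those of list genes that rose or fell at 48 h.

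Levels between genes were compared on a scale per kilobase of exons. On that scale, in the 48 h ctrl libraries, Dppa5a had the highest mean at 1391 ± 62.5 (SD, n = 3), followed by Dppa3 at 80.3 ± 7.99, Dppa4 at 68.5 ± 2.82, Ooep at 28.0 ± 1.32, Dppa2 at 26.1 ± 1.23 and Khdc3 at 5.26 ± 0.559. All further values are FPKM as deposited, per kilobase of the whole gene with introns, and are compared within a gene. Ratios between genes are compared between groups only. In bulk RNA, fewer cells with a transcript and less transcript per cell cannot be told apart.

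**Figure D1:**
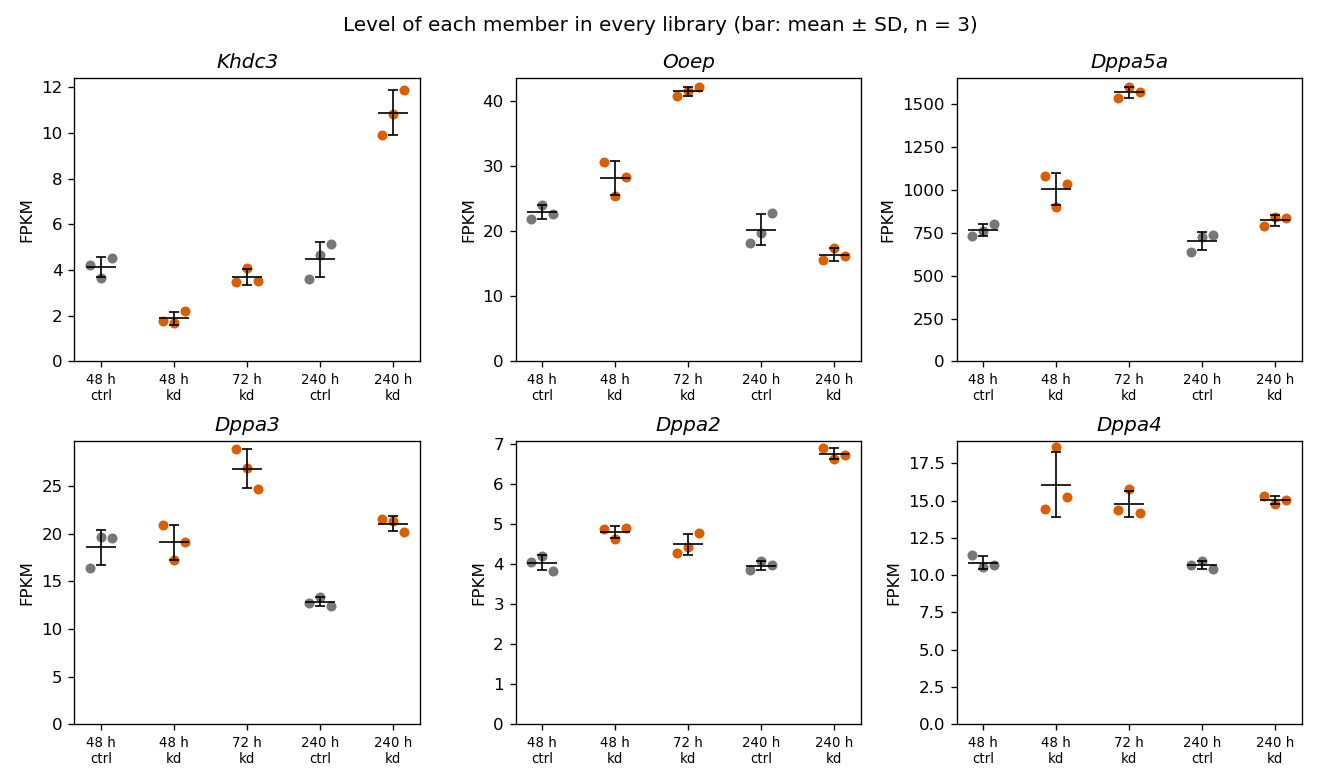
FPKM of each of the 6 genes (vertical axis, from 0) in each library of the 5 groups (horizontal axis), with points for libraries (grey for ctrl, orange for kd) and bars for the mean ± SD of 3 libraries. Khdc3 is lowest in 48 h kd and highest in 240 h kd, Ooep, Dppa5a and Dppa3 are highest in 72 h kd, Dppa2 is highest in 240 h kd, and Dppa4 is above both ctrl groups in all 3 kd groups.

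Khdc3 went through the widest range of the 6 genes, with a 5.73-fold distance between its highest and lowest group means. It was at 4.20, 3.67 and 4.55 FPKM in the 48 h ctrl libraries and at 1.77, 1.70 and 2.22 FPKM in the 48 h kd libraries, so that the kd mean was 45.8% of the control mean. In 72 h kd it was at 3.48, 4.11 and 3.50 FPKM, with 1 library within the range of 48 h ctrl and the others below it. By 240 h the order had turned: Khdc3 was at 3.61, 4.65 and 5.13 FPKM in 240 h ctrl and at 9.91, 10.9 and 11.9 FPKM in 240 h kd, a 2.44-fold difference of the means. The kd and ctrl libraries did not overlap at 48 h or at 240 h, which is what the gene was chosen for, and they overlapped at 72 h. From lowest to highest, the means (± SD, n = 3) were 1.90 ± 0.282 FPKM for 48 h kd, 3.70 ± 0.354 FPKM for 72 h kd, 4.14 ± 0.440 FPKM for 48 h ctrl, 4.46 ± 0.776 FPKM for 240 h ctrl and 10.9 ± 0.984 FPKM for 240 h kd. The ranges of the 3 middle groups overlapped between neighbours, and 48 h kd and 240 h kd lay apart from them.

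On the log2(FPKM + 0.1) scale, the fitted difference of Khdc3 between kd and ctrl was -1.09 (SE 0.12) at 48 h, -0.16 (SE 0.10) at 72 h and 1.28 (SE 0.14) at 240 h. Without 48 h kd replicate 2 the 48 h difference was -1.02. Among kd libraries alone, Khdc3 differed by 0.93 (SE 0.12) between 48 h and 72 h and by 1.53 (SE 0.09) between 72 h and 240 h, and without 48 h kd replicate 2 the former was 0.86. These values rested on few reads, 52 to 64 per library in 48 h kd and 340 to 421 in 240 h kd.

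Gm20509, whose exons lie mostly in Khdc3, had means (± SD, n = 3) of 0.765 ± 0.0745 FPKM for 48 h kd, 1.07 ± 0.0949 FPKM for 48 h ctrl, 1.04 ± 0.152 FPKM for 72 h kd, 1.20 ± 0.120 FPKM for 240 h ctrl and 2.31 ± 0.161 FPKM for 240 h kd. It had the same lowest and highest group as Khdc3, and its reads may in part be the same reads. The FPKM of Khdc3 as a percentage of that of Gm20509 was 387% ± 24.5 for 48 h ctrl, 247% ± 17.1 for 48 h kd and 471% ± 12.1 for 240 h kd. These percentages compare groups only, since FPKM is per kilobase of the whole gene and Gm20509 is the longer gene. In reads Gm20509 stood above Khdc3, with 165 to 243 against 106 to 150 per library in 48 h ctrl. What changed the percentage was not tested. Rsl24d1, which shares the far end of Gm20509 and encodes a ribosome assembly factor, had group means of 9.93 to 11.6 FPKM. It passed the call in none of the comparisons, with log2 differences of -0.07 at 48 h, -0.22 at 72 h and -0.01 at 240 h.

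Ooep followed another order. It was at 21.9, 24.1 and 22.7 FPKM in 48 h ctrl and at 30.7, 25.4 and 28.4 FPKM in 48 h kd. In 72 h kd it reached 40.8, 41.5 and 42.0 FPKM, the highest of its groups and 1.81-fold the 48 h ctrl mean. At 240 h the kd libraries, at 15.6, 17.4 and 16.2 FPKM, lay below the ctrl libraries, at 18.1, 19.7 and 22.8 FPKM. The groups did not overlap in any of the 3 comparisons with a control, with kd above ctrl at 48 h and 72 h and below it at 240 h. The 2 ctrl groups overlapped. Ooep spanned 2.53-fold from 16.4 ± 0.947 FPKM in 240 h kd to 41.4 ± 0.650 FPKM in 72 h kd.

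Dppa5a, the neighbour of Ooep, was at 731, 763 and 800 FPKM in 48 h ctrl, at 1081, 901 and 1033 FPKM in 48 h kd and at 1535, 1601 and 1573 FPKM in 72 h kd, where its mean was 2.05-fold the 48 h ctrl mean. In 240 h ctrl it was at 641, 723 and 738 FPKM, and in 240 h kd at 788, 841 and 837 FPKM. Its kd libraries lay above the ctrl libraries of each comparison. In order of the means, 240 h ctrl, 48 h ctrl and 240 h kd overlapped between neighbours, while 48 h kd and then 72 h kd lay apart above them. The related copies of Dppa5a took few reads, 0 to 7 per library for Dppa5c and 0 in every library for Dppa5b.

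Ooep and Dppa5a shared most of their pattern, with a Pearson correlation of 0.89 over the 15 libraries, which fall into 5 groups and share 1 cell line. Their ratio within a library was not constant. Ooep was 2.99% ± 0.159 of Dppa5a for 48 h ctrl, 2.80% ± 0.0480 for 48 h kd, 2.64% ± 0.0419 for 72 h kd and 2.88% ± 0.187 for 240 h ctrl, and 1.99% ± 0.0711 for 240 h kd (SD, n = 3). The highest 240 h kd library, at 2.07%, lay below the lowest of the other 12 libraries, at 2.59%. The 72 h kd libraries, at 2.59% to 2.67%, lay below all libraries of 48 h ctrl, 48 h kd and 240 h ctrl.

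Dppa3 was at 16.4, 19.6 and 19.6 FPKM in 48 h ctrl and at 20.9, 17.3 and 19.2 FPKM in 48 h kd, and these groups overlapped. It was highest in 72 h kd, at 28.8, 26.8 and 24.7 FPKM. At 240 h the ctrl libraries, at 12.7, 13.4 and 12.5 FPKM, were the lowest of all, and the kd libraries were at 21.6, 21.4 and 20.1 FPKM. Dppa3 was thus the 1 gene of the 6 in which the 2 ctrl groups did not overlap, as was so for 33.6% of all genes tested. Its 240 h ctrl mean was 69.4% of its 48 h ctrl mean.

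Dppa2 was at 4.07, 4.21 and 3.84 FPKM in 48 h ctrl and at 3.86, 4.08 and 3.98 FPKM in 240 h ctrl. The kd libraries were at 4.89, 4.65 and 4.90 FPKM at 48 h, at 4.28, 4.44 and 4.78 FPKM at 72 h and at 6.92, 6.64 and 6.74 FPKM at 240 h. Every kd library was above every ctrl library, and the 240 h kd libraries stood apart from the rest.

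Dppa4, the binding partner of Dppa2, was at 11.4, 10.5 and 10.7 FPKM in 48 h ctrl and at 10.7, 10.9 and 10.4 FPKM in 240 h ctrl. It was at 14.4, 18.6 and 15.2 FPKM in 48 h kd, at 14.4, 15.7 and 14.1 FPKM in 72 h kd and at 15.3, 14.7 and 15.02 FPKM in 240 h kd. The kd groups overlapped each other and all lay above the ctrl groups. The value of 18.6 FPKM belonged to 48 h kd replicate 2, the library with the most mitochondrial reads, and the part of that library in the difference is given below. Dppa2 was 37.3% ± 2.37 and 37.2% ± 1.03 of Dppa4 in 48 h ctrl and 240 h ctrl, 30.4% ± 4.70 and 30.6% ± 2.90 in 48 h kd and 72 h kd, and 45.0% ± 0.134 in 240 h kd (SD, n = 3).

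**Figure D2:**
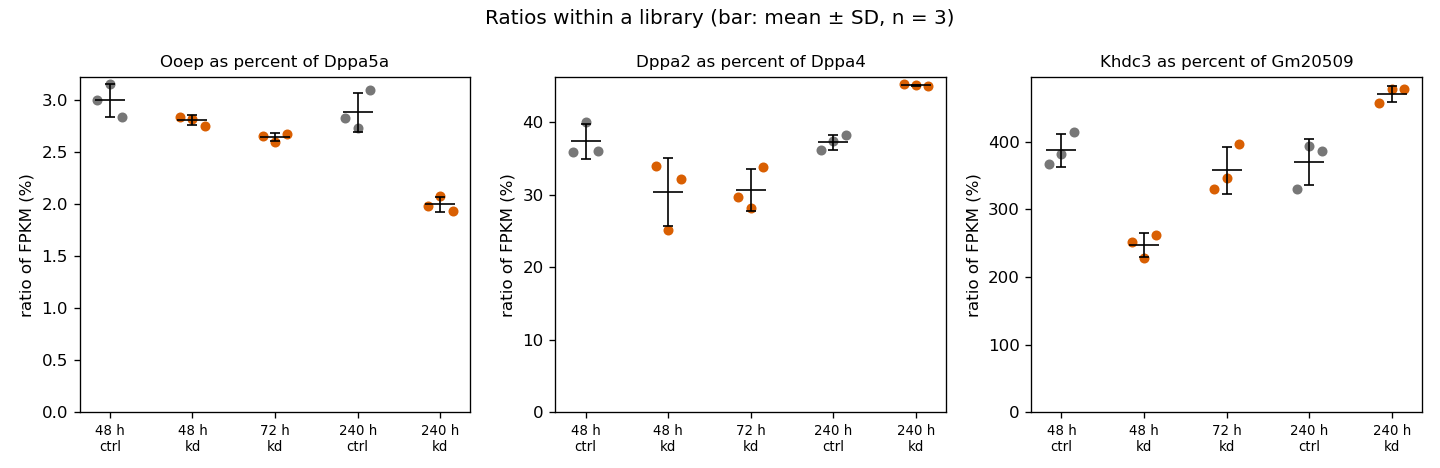
Ratio of FPKM within each library in percent (vertical axes, from 0) for Ooep over Dppa5a, Dppa2 over Dppa4 and Khdc3 over Gm20509 in the 5 groups (horizontal axes), with points for libraries and bars for the mean ± SD of 3 libraries. The 240 h kd libraries are the lowest for Ooep over Dppa5a, at 1.93% to 2.07%, and the highest for the other ratios.

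The knockdown was then compared with its control at each time with limma, fitted over all genes whose mean reached 0.5 FPKM. A gene counted as called when its adjusted p was below 0.05 and its log2 difference was larger than 0.58 in size. At 48 h, 0 of the 5 tested genes were called, against 3.99% of the 11420 genes tested. Of the 5, 3 had an adjusted p under 0.05 at any fold, against 16.1% of all genes, 4 had an unadjusted p under 0.05, against 31.9%, and limma's voom on recovered reads also called 0. Dppa4 came nearest, at 0.56 (SE 0.10, limma, adjusted p = 0.0203), followed by Dppa5a at 0.39 (SE 0.08, adjusted p = 0.0325) and Dppa2 at 0.25 (SE 0.05, adjusted p = 0.0260). Ooep was at 0.29 (SE 0.08, adjusted p = 0.0634), and Dppa3 at 0.04 with a 95% interval of -0.21 to 0.30. Without 48 h kd replicate 2, Dppa4 was at 0.45, Dppa5a at 0.47, Ooep at 0.37, Dppa2 at 0.27 and Dppa3 at 0.11, and 0 were called. When 48 h kd replicate 1 was left out instead, Dppa4 was called, at 0.63. The kd libraries lay wholly above the ctrl libraries for 4 of the 5, Dppa3 being the exception, as they did for 19.5% of all genes tested.

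At 72 h, set against 48 h ctrl, Ooep and Dppa5a rose. These were 2 of the 5 tested genes, against 8.23% of all genes tested that were called higher. The log2 rise was 1.04 for Dppa5a (SE 0.04, limma, adjusted p = 4.57e-05) and 0.85 for Ooep (SE 0.04, adjusted p = 6.85e-05), both in 3 of 3 libraries. Dppa3 was at 0.53 (SE 0.09, adjusted p = 0.00487) and Dppa4 at 0.44 (SE 0.05, adjusted p = 0.00129), both under the fold threshold, and Dppa2 was at 0.15 (SE 0.06, adjusted p = 0.0644). Dppa3 was the 1 call that turned on the control: against 240 h ctrl it was at 1.05 (adjusted p = 0.000143) and was called. Without 72 h kd replicate 3 it was called as well, at 0.59 (adjusted p = 0.00929). The 72 h kd libraries lay wholly above the 48 h ctrl libraries for all 5 tested genes, as they did for 33.6% of all genes tested.

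At 240 h, Dppa2 and Dppa3 rose, 2 of the 5 tested genes, against 4.79% of all genes tested that were called higher. Dppa2 rose by a log2 difference of 0.75 (SE 0.04, limma, adjusted p = 0.000117) and Dppa3 by 0.70 (SE 0.05, adjusted p = 0.000292), in 3 of 3 libraries each. For Dppa3 the 240 h ctrl mean was 69.4% of its 48 h ctrl mean. Dppa4 was at 0.49 (SE 0.03, adjusted p = 0.000349) and Dppa5a at 0.23 (SE 0.07, adjusted p = 0.0448), under the fold threshold. Ooep was at -0.30 (SE 0.09, adjusted p = 0.0600), with a 95% interval of -0.53 to -0.06. The kd and ctrl libraries of all 5 tested genes did not overlap at 240 h, as was so for 50.2% of all genes tested.

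**Figure D3:**
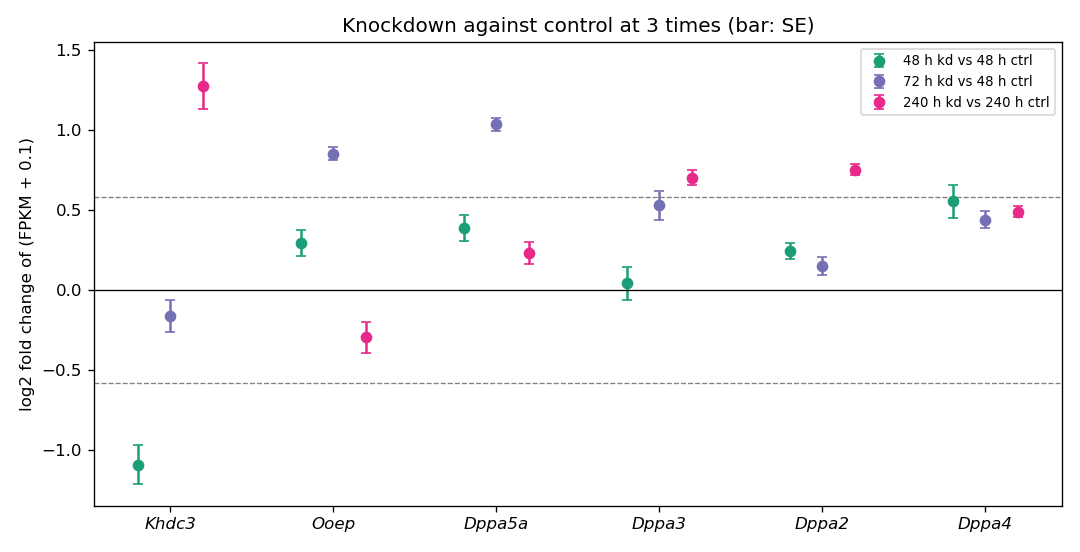
Fitted log2 difference of (FPKM + 0.1) between kd and ctrl (vertical axis) for each gene (horizontal axis) at 48 h, 72 h and 240 h, with bars for the SE and dashed lines at the fold threshold of 0.58 on either side of 0. The 48 h and 72 h points share the 48 h ctrl libraries. Khdc3 lies at -1.09, -0.16 and 1.28, and Ooep is the other gene with points on both sides of 0, at 0.29, 0.85 and -0.30.

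Whether the difference between kd and ctrl itself differed between 48 h and 240 h was tested in 1 fit of the 12 libraries of these times, in which 5.82% of all genes tested were called. The difference of Ooep was lower at 240 h than at 48 h by -0.59 (SE 0.13, limma, adjusted p = 0.0139). That of Dppa3 was higher by 0.66 (SE 0.12, adjusted p = 0.00469). Both were called, Ooep close to the fold threshold, and its call was lost under 6 of the 22 alternatives. Without 48 h kd replicate 2 Ooep was at -0.66 (limma, adjusted p = 0.00869) and Dppa3 at 0.59 (adjusted p = 0.00771), both called. Dppa2 was at 0.51 (SE 0.06, adjusted p = 0.000325), under the fold threshold, Dppa5a at -0.16 (95% interval -0.40 to 0.08) and Dppa4 at -0.06 (95% interval -0.31 to 0.18), and without that library these were at 0.48, -0.23 and 0.04. For Khdc3 the value was 2.37 (SE 0.20), or 2.30 without the library, as a description.

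Between the 2 ctrl groups, 0 of the 5 genes were called by limma, against 0.475% of all genes tested, 1 had an unadjusted p under 0.05, against 26.5%, and voom called 0. That gene was Dppa3, at -0.52 (SE 0.08, adjusted p = 0.0441). Its ctrl groups did not overlap, which held for 33.6% of all genes tested. Ooep was at -0.18, Dppa5a at -0.13, Dppa2 at -0.02 and Dppa4 at -0.02. Rescaling each library to TPM moved the median of all genes in this comparison by 0.11 and put Dppa2 and Dppa4 at 0.09 each, so that both moved with the scale.

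Along the knockdown course, Dppa5a rose from 48 h kd to 72 h kd by 0.65 (SE 0.08, limma, adjusted p = 0.00352), while 4.17% of all genes tested were called higher (479 higher and 378 lower, or 632 and 307 on the TPM scale). Without 48 h kd replicate 2 it was at 0.57, under the fold threshold. Ooep was at 0.56 (adjusted p = 0.00421) and Dppa3 at 0.49 (adjusted p = 0.0117), while Dppa2 was at -0.10 and Dppa4 at -0.11. Without the same library these were at 0.49, 0.42, -0.12 and -0.01. From 72 h kd to 240 h kd, Ooep fell by 1.33 (SE 0.05, adjusted p = 3.39e-05) and Dppa5a by 0.93 (SE 0.03, adjusted p = 3.75e-05), with 9.29% of all genes tested called lower (738 higher and 1065 lower, or 967 and 822 on the TPM scale). Dppa2 was at 0.58 (SE 0.05, adjusted p = 0.000254), just under the fold threshold, Dppa3 at -0.35 (adjusted p = 0.00509) and Dppa4 at 0.03.

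Of 6 listed partners of Khdc3 and Ooep in the subcortical maternal complex, 2 were tested, Tle6 and Zbed3. The oocyte proteins Nlrp5, Padi6 and Nlrp2 had group means of at most 0.00257, 0.0361 and 0.00417 FPKM, and Nlrp4f had group means of 0.242 to 0.597 FPKM. Tle6, a Groucho-family protein of the complex, was at 0.02 at 48 h and rose by 0.90 at 72 h (SE 0.16, limma, adjusted p = 0.00558). Its 240 h means were 0.472 FPKM in ctrl and 1.23 FPKM in kd. Zbed3, another component of the complex, fell at 240 h by 0.68 (SE 0.05, adjusted p = 0.000552), from 1.54 to 0.929 FPKM. A gene that reached the minimum through the higher group alone, as Tle6 did at 240 h, had a lower mean in the other group by that choice. Such genes are given here and below by their levels with no test and are left out of the counts.

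Among 34 other maternal-effect and oocyte genes, 13 were tested, and their median log2 difference was 0.00, 0.03 and -0.04 at 48 h, 72 h and 240 h, beside 0.01, 0.01 and 0.00 over all genes tested. Tcl1, a co-activator of the kinase Akt, rose by 0.61 at 48 h and by 1.47 at 72 h and was at 0.10 at 240 h (limma, adjusted p = 0.00672, 2.45e-05 and 0.282). Without 48 h kd replicate 2 it was at 0.66 at 48 h and still called. Kdm1b, a histone demethylase of the growing oocyte, fell at 72 h by 0.66 (SE 0.05), and Zfp36l2, an RNA-decay factor, fell at 240 h by 0.68 (SE 0.05). Of the KH-domain relatives, Khdc1a, Khdc1b and Khdc1c were listed at 0 in every library.

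Of 23 genes of the 2-cell-like state, which Dppa2 and Dppa4 act upstream of, 0 reached the minimum at 48 h and 72 h and 1 did so at 240 h, through the kd libraries. This gene, Zscan4d, a member of a family of near-identical copies, was at 0.0167 FPKM in 240 h ctrl and 1.16 FPKM in 240 h kd. The summed level of the list was 0.298 to 0.417 FPKM in 240 h ctrl and 7.25 to 7.66 FPKM in 240 h kd. Duxf3 was listed at 0 in every library. In the 2 other kd groups the sum was 0.165 to 0.426 FPKM at 48 h and 0.264 to 0.611 FPKM at 72 h, against 0.0883 to 0.151 FPKM in 48 h ctrl.

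For the next lists the background was 1.99% of all genes tested called higher and 2.01% called lower at 48 h, 8.23% and 5.3% at 72 h, and 4.79% and 4.12% at 240 h. Of 14 primordial germ cell genes, 7 reached the minimum in both groups at each of the 3 times, with median log2 differences of 0.19, 0.43 and 0.46. At 48 h 1 of them fell, at 72 h 2 rose, and at 240 h 2 rose and 2 fell. Tfap2c, a transcription factor of germ cell specification, was the one that fell at 48 h, by 0.61 with and without 48 h kd replicate 2, and it rose by 0.92 at 72 h and by 0.64 at 240 h. Ifitm3 was at 0.48 at 48 h and was called without that library, at 0.61 (limma, adjusted p = 0.0102). At 240 h Nanos3, an RNA-binding germ cell factor, rose by 1.07, and Prdm14 fell by 1.10. Kit, a receptor kinase, had means of 0.927 FPKM in 48 h ctrl, 0.181 FPKM in 48 h kd and 0.152 FPKM in 72 h kd, and Dazl was at 0.375 FPKM in 48 h ctrl and 0.649 FPKM in 72 h kd.

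Of 17 tested naive pluripotency genes, with medians of 0.02, 0.05 and -0.09, 1 (Tcl1, on this list too) rose and 2 fell at both 48 h and 72 h, and 5 fell at 240 h. Klf4 was at -0.87, -0.76 and -1.20 and Tbx3 at -1.28, -1.09 and -1.10, and without 48 h kd replicate 2 their 48 h values were -0.85 and -1.27. Of the primed epiblast genes, with medians of -0.41, -1.11 and 0.36, 2 of 5 fell at 48 h, 4 of 5 fell at 72 h and 2 of 6 rose at 240 h, where Dnmt3b was at 0.89 and Sall2 at 1.30. The calls at 48 h were Zic2 at -1.14 and Sox3 at -0.78. Without that library Zic2 was at -1.12, and the call of Sox3 was lost at -0.68 (limma, adjusted p = 0.0589).

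Levels of markers of other cell types also differed between kd and ctrl libraries. The 10 trophoblast genes summed to 4.09 to 4.67 FPKM in 240 h ctrl and 12.05 to 12.7 FPKM in 240 h kd, with 2 tested and both higher (Krt8 at 1.25 and Krt18 at 1.95). These 2 keratins made up most of the sum, with means of 1.38 and 1.70 FPKM in 240 h ctrl and 3.42 and 6.78 FPKM in 240 h kd. At 48 h the sum of the 10 genes was 4.06 to 4.27 FPKM in ctrl and 2.93 to 3.37 FPKM in kd, and in 72 h kd it was 3.92 to 5.16 FPKM. The means of the defining markers were 0.0702 and 0.329 FPKM for Cdx2, 0.0979 and 0.856 FPKM for Hand1, 0.652 and 0.316 FPKM for Eomes and 0.000663 and 0.00125 FPKM for Elf5, in 240 h ctrl and 240 h kd, so that Cdx2 and Hand1 were higher in kd, Eomes was lower and Elf5 was near 0 in both. The 8 neural progenitor genes summed to 8.06 to 8.79 FPKM in 240 h ctrl and 20.2 to 21.2 FPKM in 240 h kd, with 2 of 2 tested higher, Sox1 and Nes. The sum was 7.55 to 8.66 FPKM in 48 h ctrl, 13.3 to 15.1 FPKM in 48 h kd and 17.3 to 19.0 FPKM in 72 h kd. Sox1 made up most of it, with means of 4.69, 11.7 and 15.8 FPKM, and rose by 1.30 at 48 h, with and without 48 h kd replicate 2, and by 1.73 at 72 h (limma, adjusted p = 0.00124 and 6.32e-05 with all libraries). Nes was at 2.86 and 2.02 FPKM in 48 h ctrl and 72 h kd, Pax6 at 0.400 and 0.117 FPKM and Olig2 at 0.0594 and 0 FPKM. Of the 8 fibroblast genes, with sums of 0.891 to 1.00 FPKM in 240 h ctrl and 1.41 to 1.63 FPKM in 240 h kd, Col1a1 had means of 0.261 and 0.923 FPKM and Thy1 of 0.646 and 0.452 FPKM, so that they lay in opposite directions. Of the 9 primitive endoderm genes 0 reached the minimum in a comparison of kd and ctrl. Their sum was 0.607 to 0.649 FPKM in 48 h ctrl, 0.263 to 0.338 FPKM in 48 h kd and 0.178 to 0.252 FPKM in 72 h kd. It was 0.796 to 0.881 FPKM in 240 h ctrl and 0.649 to 0.752 FPKM in 240 h kd. Sox7 made up most of the sum in the ctrl groups. Its means were 0.437 FPKM in 48 h ctrl, 0.128 FPKM in 48 h kd and 0.0404 FPKM in 72 h kd. They were 0.569 FPKM in 240 h ctrl and 0.248 FPKM in 240 h kd. At 240 h the means of Gata4, Gata6, Sox17, Pdgfra, Dab2, Foxa2 and Afp were higher in kd, and that of Hnf4a was lower, so that these genes lay in opposite directions. The part of these cells or programmes in the values of Ooep and Dppa5a at 72 h and of Khdc3, Dppa2 and Dppa3 at 240 h was not tested.

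Genes within 100 kb of the 6 were followed as well. Of 46 neighbours that are not among the 6, 19 had a mean of at least 0.5 FPKM. Next to Dppa3, the pluripotency genes Nanog and Gdf3 were not called at any of the 3 times, with Nanog at -0.14, 0.13 and -0.09 and Gdf3 at 0.19, 0.48 and 0.18. Leaving out Gm20509 for the reads it may share with Khdc3, the neighbours called against a control, Apobec1 and 4930542C12Rik, reached the minimum through the higher group alone. Between 72 h kd and 240 h kd, the pseudogene Gm10420 near Dppa3 fell by 0.96 (limma, adjusted p = 0.00346). The miRNA gene Gm26377 near Ooep was called too, at -0.59, but lies inside Eef1a1 and may share its reads. Eef1a1 itself was at -0.52, under the fold threshold. Apobec1, the RNA-editing deaminase near Dppa3, had means of 0.448 and 0.420 FPKM in 48 h ctrl and 240 h ctrl and of 0.957, 1.04 and 0.433 FPKM in 48 h, 72 h and 240 h kd. 4930542C12Rik near Ooep and Dppa5a, which overlaps Ddx43 on the other strand, was highest in 72 h kd, at 0.800 FPKM, against 0.429 FPKM in 48 h ctrl, and Gm27186 near Khdc3, which lies inside Rab27a, was at 0.258 FPKM in 72 h kd and 1.10 FPKM in 240 h kd.

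The genes with a pattern most like each of the 6 were taken as those with the highest Pearson correlation over the 15 libraries on the log2 scale, among 6933 genes, as a description. For Khdc3 these were S100a6 (a calcium-binding protein, r = 0.97), Usp10 (a deubiquitinase, r = 0.97), Ubl3 (r = 0.96), the imprinted RNA H19 (r = 0.96) and Id3 (an inhibitor of helix-loop-helix factors, r = 0.95). They differed in size: H19 went from 2.37 FPKM in 48 h kd to 17.5 FPKM in 240 h kd and Id3 from 4.34 to 20.1 FPKM, while Usp10 went from 7.51 to 9.77 FPKM. For Ooep the genes were Pdcl, Pold2 and Lctl (each r = 0.98), for Dppa5a Ptms, Hexa and Prmt7 (each r = 0.99), for Dppa3 Ifitm1 (r = 0.95), Ptp4a2 and Tmem123 (each r = 0.94), for Dppa2 Tmem39b (r = 0.99), Bcl3 and Igf2bp1 (each r = 0.98), and for Dppa4 Ceacam1, Msl1 (each r = 0.95) and Zcrb1 (r = 0.94). None of the 6 was among the nearest of another. Among the 6 themselves, Dppa5a and Dppa3 were at r = 0.81, Dppa2 and Dppa4 at 0.62, Khdc3 and Dppa2 at 0.59, and Khdc3 and Ooep at -0.61.

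**Figure D4:**
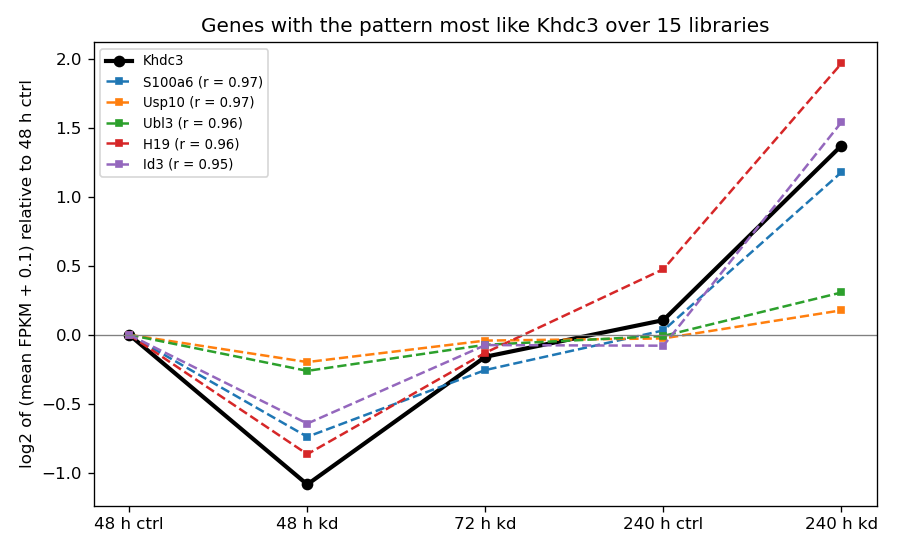
Log2 of (mean FPKM + 0.1) relative to 48 h ctrl (vertical axis) over the 5 groups (horizontal axis) for Khdc3 (black) and the 5 genes with the highest correlation with it over 15 libraries (coloured, dashed). All 6 lines are lowest in 48 h kd and highest in 240 h kd, with the smallest range for Usp10 and Ubl3.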

How the data were processed

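RNA-seq libraries (single-end) of 81K1 cells were grouped by the labels into 5 groups of 3. The authors aligned reads to mm10 (GRCm38.p6) with STAR 2.7.0c, counted reads per gene in R and tested with DESeq2 1.30.0, per the methods and processing notes of the study. The deposited values are FPKM, 1 per gene and library. Multiplied by gene span and library total they gave whole reads for 100% of values (tolerance 0.001), so the divisor was the whole gene with introns. How strand and reads in overlapping genes were handled was not tested, and overlapping genes may share reads. Genes in the files were matched to GENCODE M21 by position and symbol (96.5%).

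The tests were two-sided, with limma 3.58.1 in R 4.3.3 (lmFit, eBayes with trend) on log2(FPKM + 0.1), which understates changes of low genes. They covered all genes whose mean FPKM over the compared libraries reached 0.5, with Benjamini-Hochberg adjustment across these. Calls needed an adjusted p under 0.05 and a log2 difference larger than 0.58 in size. The pairwise fits were checked on simulated reads with a fixed spread, which need not match that of these libraries, and the fit of the change between times was not checked. Intervals are 95% intervals of the fit. Nothing in the labels says that replicates were separate cultures, so p-values measure the spread between these libraries. The 48 h and 72 h comparisons share their controls.

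The genes, the lists and the tests were chosen with earlier results of these data known. Of each list, at most the 3 called genes with the largest change per comparison were named. Nearest genes were sought among genes with means from 1 FPKM and 50 reads upwards, without overlapping or clone-named genes, 5 for Khdc3 and 3 for each other gene. Neighbours within 100 kb were named when called, and Nanog, Gdf3 and Rsl24d1 were named for their position. Alternatives were other pseudocounts (1 and 0.01), no minimum or a minimum of 2 FPKM, TPM, median centring, 1 fit of all 15 libraries, no trend, the replicate block, voom on recovered reads (mean of at least 10), each library left out, and for 72 h the 240 h controls. The fit of list genes without 48 h kd replicate 2, and list counts over genes at the minimum in both groups, were added after seeing the data.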

Additional observations from a re-analysis of the deposited data

Results flagged for a closer look

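The difference between knockdown and control changed between 48 h and 240 h for Ooep and Dppa3, by the test of that change in 1 fit of 12 libraries. For Ooep the change was -0.59 on the log2 scale (limma, adjusted p = 0.0139), from 0.29 at 48 h to -0.30 at 240 h, and neither single difference was called. Over the 22 alternatives it lay between -0.66 and -0.50, and the call was lost under some of them. For Dppa3 the change was 0.66 (adjusted p = 0.00469), from 0.04 at 48 h to 0.70 at 240 h, and its 240 h ctrl mean was 69.4% of its 48 h ctrl mean. Between these times the ctrl mean of Dppa3 went from 18.5 to 12.9 FPKM, and the ctrl groups did not overlap. The kd mean went from 19.1 to 21.0 FPKM, with overlapping ranges. What lowered the ctrl level was not tested.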

How the results depend on the processing

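Of 595 fold changes of the 5 tested genes under the alternatives, 567 kept their direction and their side of the call. The number of the 5 called at 48 h was 0, and 0 to 1 when 1 library was left out: Dppa4 was called at 0.63 (adjusted p = 0.0300) without 48 h kd replicate 1. Between 48 h kd and 72 h kd it was 1, but 0 with no FPKM minimum, 2 on the TPM scale and 0 to 2 with 1 library left out (0 without 48 h kd replicate 2, 2 without 48 h kd replicate 1). For the change between 48 h and 240 h it was 2, but 1 with pseudocount 1, 1 on the TPM scale and 1 to 2 with 1 library left out. Each time the call of Ooep was lost, at -0.50 to -0.56, without 48 h kd replicate 1, 48 h ctrl replicate 1, 240 h ctrl replicate 3 or 240 h kd replicate 1. Dppa2 between 72 h kd and 240 h kd was called under 7 alternatives, at 0.58 to 0.66. Directions turned for small differences: Dppa3 at 48 h (-0.041 to 0.115 with 1 library left out, and below 0 without 48 h kd replicate 1 or 48 h ctrl replicate 1), Dppa2 between the controls (0.085 on the TPM scale, -0.060 to 0.0063 with 1 library left out, above 0 without 48 h ctrl replicate 2), Dppa4 between the controls (0.089 on the TPM scale, -0.043 to 0.011 with 1 left out, above 0 without 48 h ctrl replicate 1), Dppa4 from 72 h kd to 240 h kd (-0.0023 without 72 h kd replicate 3, to 0.074) and Dppa4 for the change between times (-0.138 to 0.043 without 48 h kd replicate 2). Except for the lost libraries, the cause was not tested. With pseudocount 1, Khdc3 was at -0.83 at 48 h, at 1.34 between 72 h kd and 240 h kd and at 1.96 for the change between times.

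Replicate numbers did not pair the libraries (correlations of deviations -0.10 to 0.14), and the replicate block changed no call among the 5 genes, with 0, 2 and 2 called at 48 h, 72 h and 240 h. Counts over all genes depended more on the settings. At 48 h, 72 h and 240 h they were 456, 1548 and 1016, against 1485, 3642 and 2998 with voom, 208, 745 and 541 with pseudocount 1, and 208, 768 and 453 at a minimum of 2 FPKM. With no minimum they were 2500 at 72 h and 1768 at 240 h, and with the replicate block 285 at 48 h. Between the controls they were 54, against 151 with TPM (136 higher and 15 lower, in place of 40 and 14), 103 in 1 fit of all libraries, 27 with pseudocount 1, 32 at the higher minimum, 31 with no trend, 220 with voom, 0 with the block and 2 to 10 with 1 library left out. From 48 h kd to 72 h kd the count was 857, against 365, 407 and 2101 with pseudocount 1, the higher minimum and voom. From 72 h kd to 240 h kd it was 1803, against 882, 888, 4201 and, with no minimum, 2841, and for the change between times 664, against 333, 324, 1708 and 1051. The planned edgeR test was not run, and voom was the test used on recovered reads. Khdc3 rests on as few as 52 reads in a library, which limits its precision.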
